A study of Homo sapiens with 12 samples.

Results

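The genes described here are the HLA class I heavy chain genes *HLA-B*, *HLA-C*, *HLA-E*, *HLA-F* and *HLA-G*, the light chain gene *B2M*, and *NLRC5*, measured by RNA-seq in U251 cells, a human glioblastoma line. They were chosen by name, as 7 of the 45416 genes in the table, and all 7 were found in it. U251 cells received a control siRNA (siNC) or 1 of a pair of siRNAs against *PD-L1* (siPDL1-1 and siPDL1-2), and 48 h later they were left unstimulated or given IFNγ at 100 U/ml for 24 h. This gave 6 groups of 2 libraries, 12 in all, from a single unmodified line that carries no transgene. The unstimulated siNC cells were also transfected, so every group carries an siRNA, and no untransfected group was analysed here. The study's methods describe 2 independent experiments. Each p-value from a comparison of groups rests on the spread within groups of 2 libraries. That spread was pooled over all groups fitted together and drawn toward that of other genes. The ratios tested further on compare 6 libraries with 6, with the siRNA groups pooled.

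Class I molecules display peptides from inside the cell to T cells and natural killer cells. Each is a heavy chain paired with β2-microglobulin, the product of *B2M*, without which most heavy chains do not reach the surface. *HLA-B* and *HLA-C* encode classical, highly variable heavy chains that present peptides to CD8 T cells. *HLA-E* encodes a conserved chain that displays leader peptides of other class I molecules to NKG2A receptors, *HLA-F* encodes a less studied chain found mostly inside cells, and *HLA-G* encodes a chain best known from the placenta. *NLRC5* encodes the transactivator of class I genes. It binds no DNA itself and acts on their promoters through the RFX complex, CREB and ATF factors and NF-Y. IFNγ reaches the same genes through the kinases JAK1 and JAK2 and the factor IRF1, and *NLRC5* is itself an IFNγ-responsive gene. IFNγ raises class I expression in most cell types, glioma cells among them.

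The libraries held 17101069 to 55657393 reads on genes. Glial and glioma markers were present, with *VIM* at 3139 to 3968 CPM (read counts scaled to library size by the authors), *CD44* at 421 to 669 CPM and *SOX2* at 108 to 213 CPM, whereas the astrocyte marker *GFAP* reached only 7.25 CPM and *OLIG2* only 0.359 CPM. All 5 markers of T and NK cells and all 3 of B cells stayed below 1 CPM in every library, with summed levels of 0.047 to 0.232 CPM and 0 to 0.188 CPM. The 4 myeloid markers summed to 0.704 to 1.80 CPM, of which *CSF1R* alone passed 1 CPM, and the 3 endothelial markers summed to 2.01 to 5.63 CPM, mostly *VWF*. The targeted gene, *CD274* (which encodes PD-L1), was at 4.60 and 4.91 CPM in unstimulated siNC cells, 2.67 and 2.73 CPM with siPDL1-1 and 3.57 and 3.45 CPM with siPDL1-2. After IFNγ it was at 71.2 and 76.0 CPM with siNC, 60.9 and 66.7 CPM with siPDL1-1 and 37.5 and 35.0 CPM with siPDL1-2. After IFNγ the log2 difference from siNC was -0.20 ± 0.07 (SE, adjusted p = 0.0604, limma) with siPDL1-1 and -1.0 ± 0.07 (adjusted p = 2.79e-05, limma) with siPDL1-2, and the siRNAs differed from each other by 0.80 ± 0.07 (adjusted p = 5.03e-05, limma).

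The heavy chain genes lie in the major histocompatibility complex on chromosome 6 (GRCh38), in the order *HLA-F* (29722775-29738528, plus strand), *HLA-G* (29826967-29831125, plus), *HLA-E* (30489509-30494194, plus), *HLA-C* (31268749-31272130, minus) and *HLA-B* (31353872-31357188, minus). *B2M* lies on chromosome 15 (44711487-44718851, plus) and *NLRC5* on chromosome 16 (56989485-57083531, plus). Promoter sequences from RefSeq (GRCh38.p14) were matched for 5 of the 7 genes. They are shown because class I promoters hold well-known elements, namely the ISRE, read by interferon regulatory factors, the kappaB element, read by NF-kappaB, and a CRE and CCAAT box, read by the factors that *NLRC5* works through. The stretches below run 5′ to 3′ on the gene's strand from 185 bases before the start site and stop 31 bases before it. A stretch ends earlier where it would reach a base annotated as untranslated region. It can still lie within the gene bounds given above, as that of *HLA-F* does. Capitals mark a motif match.
HLA-B, chr6:31357294-31357364, minus strand: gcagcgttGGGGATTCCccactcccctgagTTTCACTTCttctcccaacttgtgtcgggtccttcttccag
HLA-C, chr6:31272123-31272277, minus strand: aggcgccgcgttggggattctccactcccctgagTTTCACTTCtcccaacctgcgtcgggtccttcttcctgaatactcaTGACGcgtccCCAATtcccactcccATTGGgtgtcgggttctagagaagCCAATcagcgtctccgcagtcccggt
HLA-F, chr6:29723249-29723305, plus strand: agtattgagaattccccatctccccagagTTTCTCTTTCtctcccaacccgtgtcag
HLA-G, the third of its 3 start sites, chr6:29827640-29827794, plus strand: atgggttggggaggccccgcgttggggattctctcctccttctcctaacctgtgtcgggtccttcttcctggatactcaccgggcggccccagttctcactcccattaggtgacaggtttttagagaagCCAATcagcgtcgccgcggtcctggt
B2M, chr15:44711332-44711486, plus strand: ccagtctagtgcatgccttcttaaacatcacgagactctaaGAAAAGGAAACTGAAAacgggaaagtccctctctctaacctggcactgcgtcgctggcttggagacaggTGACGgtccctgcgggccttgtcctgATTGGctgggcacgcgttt

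Motifs were searched on both strands of the whole 300-base windows, which run from 250 bases before the start site to 50 after it. The ISRE core was sought as GAAA, any 2 bases, GAAA (the long form, in 3.57% of all 35116 promoter windows) and as GAA, any 2 bases, GAAA (the short form, in 7.66%). Windows with either form made up 10.6%. *HLA-F* held the long form at -156 and *B2M* held it in a pair of overlapping copies at -144 and -138, whereas *HLA-B* and *HLA-C* held the short form at -155 and -151. None of the 3 *HLA-G* windows held either form. The kappaB motif, GGG, any base, ATTCC (0.82% of windows), lay at -177 in *HLA-B* and at -4 in *B2M*. The CRE core TGACG (24.6% of windows) lay at -106 in *HLA-B*, -105 in *HLA-C* and -75 in *B2M*, and was not matched in *HLA-F* or *HLA-G*. The box CCAAT (34.6% of windows) was matched in *HLA-B*, *HLA-C*, *HLA-F* and *B2M*, and in the third *HLA-G* window at -56. The *HLA-B* window was identical to that of *HLA-C* at 88.5% of aligned positions, to that of *HLA-F* at 79.7% and to the third of *HLA-G* at 74.5%. These matches describe letters in the reference genome, not occupancy in U251 cells.

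In unstimulated siNC cells, *B2M* and the classical and *HLA-E* heavy chains were expressed while *HLA-F* and *NLRC5* were low and *HLA-G* was near 0. Per kilobase of annotated exon, *B2M* stood at 122 ± 3.5 CPM per kb (SD, n = 2), *HLA-C* at 76.8 ± 4.35, *HLA-E* at 53.5 ± 0.198, *HLA-B* at 28.3 ± 0.0879, *HLA-F* at 3.69 ± 0.032, *NLRC5* at 1.49 ± 0.0676 and *HLA-G* at 0.0349 ± 0.0291. Every step in that order was larger than the spread between the libraries. After IFNγ, *B2M* still led at 599 ± 17.8 CPM per kb. *HLA-E* at 395 ± 10.5 and *HLA-B* at 389 ± 26.4 did not differ beyond their spread, and *HLA-C* followed at 279 ± 25.2. *HLA-F* reached 25.7 ± 1.39 and *NLRC5* 15.4 ± 0.447. With the longest coding transcript as the length, the unstimulated order did not change, but after IFNγ *HLA-B* at 540 ± 36.7 CPM per kb stood above *HLA-E* at 453 ± 12.1. *HLA-E* and *HLA-C*, at 451 ± 40.6, then did not differ beyond their spread.

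**Figure D1:**
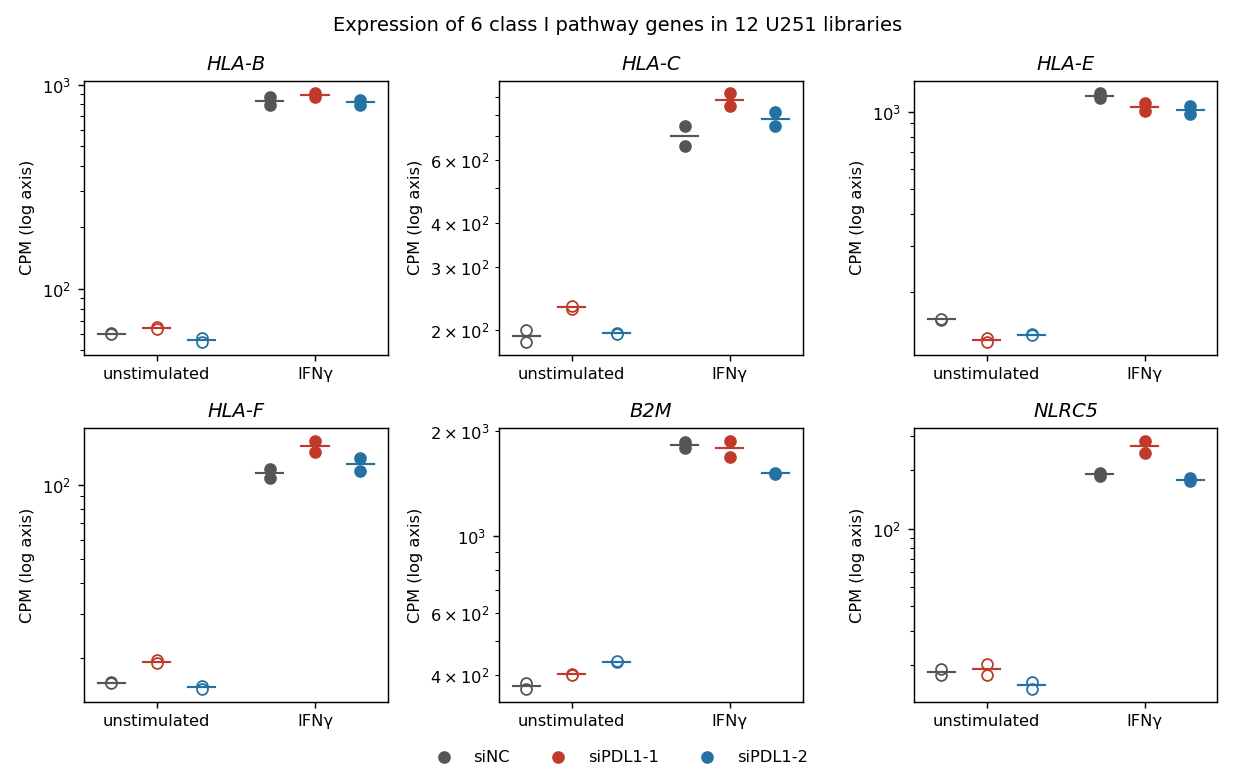
Level of each of 6 genes in CPM (log axis, scaled separately for each gene) in the 12 libraries, with open circles for unstimulated and filled circles for IFNγ-stimulated cells and a line at each group's mean. All 6 stimulated libraries lie above all 6 unstimulated libraries in every panel, and the differences between siRNAs are small beside that step; *B2M* with siPDL1-2 goes from the highest of the unstimulated groups to the lowest of the stimulated ones.

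IFNγ raised the 6 genes tested in control cells, and *HLA-G* had too few reads to be tested. The response was steepest for *HLA-B* and *NLRC5* and shallowest for *HLA-C*. A gene was called where the adjusted p-value over all 17982 genes tested (Benjamini-Hochberg, FDR) was under 0.01 and the fold change over 1.5, from limma on log2(CPM + 1), a scale that understates changes of low genes. All 6 genes tested were called higher, against 6.67% of all genes tested. *HLA-B* went from 60.6 and 60.3 CPM in unstimulated siNC cells to 869 and 790 CPM after IFNγ, a log2 change of 3.76 ± 0.05 (SE) or 13.5-fold (adjusted p = 2.80e-17, limma). Only 37 of the 17982 genes had a larger log2 change.

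*NLRC5* went from 17.9 and 19.1 CPM to 194 and 186 CPM, a log2 change of 3.30 ± 0.07 (9.83-fold, adjusted p = 4.01e-14, limma). *HLA-E* went from 156 and 157 CPM to 1176 and 1132 CPM, a log2 change of 2.88 ± 0.04 (7.34-fold, adjusted p = 1.36e-16). *HLA-F* went from 16.0 and 15.8 CPM to 115 and 107 CPM, a log2 change of 2.73 ± 0.07 (6.62-fold, adjusted p = 6.04e-14). For these 3 genes every stimulated library was above every unstimulated one by far more than the replicates differed. *B2M*, the most abundant member, went from 378 and 363 CPM to 1782 and 1858 CPM, a log2 change of 2.29 ± 0.04 (4.90-fold, adjusted p = 2.68e-15). *HLA-C* went from 185 and 200 CPM to 745 and 656 CPM, a log2 change of 1.86 ± 0.06 (3.62-fold, adjusted p = 5.45e-11), the smallest among the 6 called genes. The 95% interval for *HLA-C*, 1.72 to 1.99, did not reach that of *HLA-B*, 3.65 to 3.86. In bulk RNA, a larger share of responding cells and more RNA per cell cannot be told apart.

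The same 6 genes were called higher after IFNγ with siPDL1-1 (6 of 6 tested, beside 5.58% of all genes tested) and with siPDL1-2 (6 of 6, beside 3.62%). *HLA-B* reached 904 and 866 CPM from 65.0 and 63.3 CPM with siPDL1-1, and 794 and 842 CPM from 57.7 and 54.8 CPM with siPDL1-2. Its log2 change, 3.77 ± 0.05 and 3.84 ± 0.05, had the largest fitted value of the 6 in both. With siPDL1-1 its 95% interval, 3.66 to 3.87, lay within that of *NLRC5*, 3.57 to 3.89, so these genes could not be ranked there. *HLA-C* remained the smallest in siPDL1-1 cells at 1.93 ± 0.06, but with siPDL1-2 its 1.99 ± 0.06 stood above the 1.79 ± 0.04 of *B2M*. *HLA-E* rose by 3.00 ± 0.04 and 2.88 ± 0.04 on the log2 scale, and *HLA-F* by 2.82 ± 0.07 and 2.91 ± 0.07. *NLRC5* rose by 3.73 ± 0.07 with siPDL1-1, next to *HLA-B*, and by 3.42 ± 0.07 with siPDL1-2. These 3 IFNγ effects come from separate pairs of groups, so no control library is shared among them. Their standard errors are shared, as they come from a single fit of all 12 libraries.

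Whether the IFNγ effect itself depended on the siRNA was tested as an interaction. With siPDL1-1, 0 of the 6 genes were called by limma (0.968% of all genes), edgeR or DESeq2, and 2 had an unadjusted p under 0.05 (beside 15.5% of all genes). Of the 6, 0 passed FDR < 0.01 without the fold limit (1.63% of all genes did). The 2 genes were *NLRC5*, whose IFNγ effect was larger than in siNC cells by 0.43 (95% interval 0.20 to 0.66, adjusted p = 0.0393, limma), and *B2M*, at -0.15 (-0.28 to -0.01, adjusted p = 0.266, limma). For *HLA-B* the difference was 0.01, with a 95% interval from -0.14 to 0.16. With siPDL1-2, the count was again 0 of 6 by limma (7.62% of all genes), edgeR or DESeq2, and 1 had an unadjusted p under 0.05 (beside 39.6% of all genes). That gene was *B2M*, whose IFNγ effect was smaller than in siNC cells by a log2 difference of -0.50 (95% interval -0.64 to -0.37, adjusted p = 8.00e-05, limma). This is a 0.705-fold ratio of the fold changes, short of the 1.5-fold limit. In the same test 17.1% of all genes passed FDR < 0.01. The unstimulated and the stimulated side both contributed. *B2M* was at 435 and 438 CPM in unstimulated siPDL1-2 cells, above both siNC libraries, and at 1502 and 1515 CPM after IFNγ, below both.

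**Figure D2:**
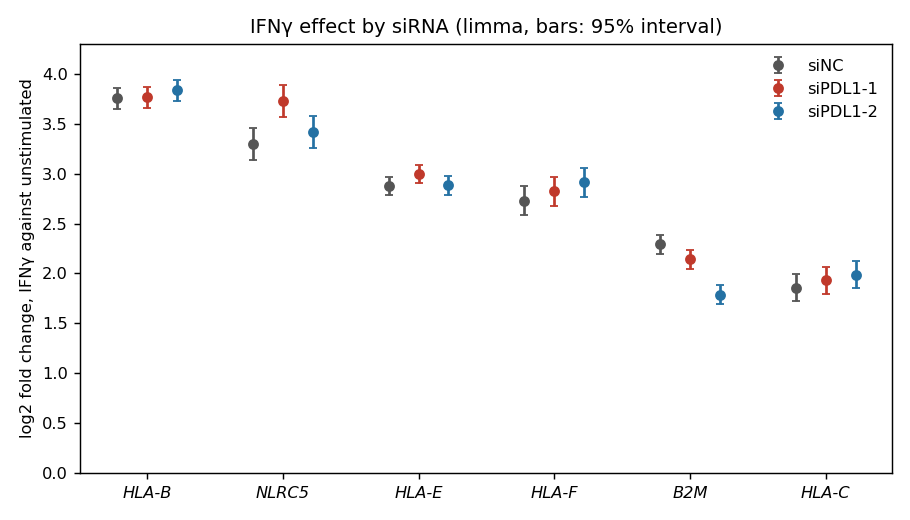
Log2 fold change by IFNγ for 6 genes (limma, bars: 95% interval) within each siRNA group, 2 libraries against 2, with each gene's spread estimated over all 12 libraries. *HLA-B* has the highest value in each group, though with siPDL1-1 (3.77) its interval overlaps that of *NLRC5* (3.73). *B2M* is lowest with siPDL1-2 (1.79) where *HLA-C* is lowest in the other groups. *HLA-F* (2.91) and *HLA-E* (2.88) are nearly level with siPDL1-2, and *NLRC5* is higher with siPDL1-1 (3.73) than with siNC (3.30).

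Because the genes differed in their response, the mix of heavy chain mRNA differed between unstimulated and stimulated cells. Among the 4 heavy chain genes described here and expressed, *HLA-B* made up 17.5% ± 0.53 (SD, n = 2) of the summed CPM per kb in unstimulated siNC cells and 35.7% ± 0.343 after IFNγ. The share of *HLA-C* was 47.3% ± 1.39 and then 25.6% ± 0.817, and that of *HLA-E* 33.0% ± 0.776 and then 36.3% ± 1.15. *HLA-F* stayed near 2%, at 2.27% ± 0.0817 and 2.36% ± 0.0101. With siPDL1-1 the *HLA-C* share was 53.9% ± 0.886 unstimulated and 30.5% ± 0.351 stimulated, and with siPDL1-2 it was 50.5% ± 0.219 and 29.1% ± 0.351. The *HLA-B* share after IFNγ was within 35.7% to 35.9% in all 3 siRNA groups.

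The ratio of *HLA-B* to *HLA-C* was 3.68-fold higher in the 6 stimulated than in the 6 unstimulated libraries (log2 difference 1.88, exact two-sided permutation p = 0.00216, or 0.00289 adjusted over 4 ratios). That p is the smallest that 6 against 6 allows. The ratios restate the IFNγ changes given above in the same libraries, so their p-values add no separate evidence. The permutations also treated libraries of different siRNAs as alike. The ratio of *HLA-B* to *HLA-C* was higher by 1.92, 1.85 and 1.87 on the log2 scale within siNC, siPDL1-1 and siPDL1-2. The ratio of *HLA-E* to *HLA-C* differed by 1.00 and that of *HLA-B* to *B2M* by 1.73, with the same exact permutation p. In each of these 3 ratios no stimulated library overlapped an unstimulated one, which the smallest possible p already implies. The ratio of *NLRC5* to *HLA-B* differed by -0.25 (exact permutation p = 0.0390, adjusted 0.0390), with -0.41 in siNC, 0.01 in siPDL1-1 and -0.36 in siPDL1-2 cells, so the pooled difference did not hold within the siPDL1-1 group. Set against the light chain, the 4 heavy chains summed to 1.33 ± 0.0745 times *B2M* per kb in unstimulated siNC cells and 1.82 ± 0.16 times after IFNγ. In siPDL1-2 cells the same ratio was 1.08 ± 0.0168 and 2.15 ± 0.0954. With the longest coding transcripts as lengths the siNC ratios were 0.685 and 0.902, so their level depends on the length chosen while the direction does not.

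**Figure D3:**
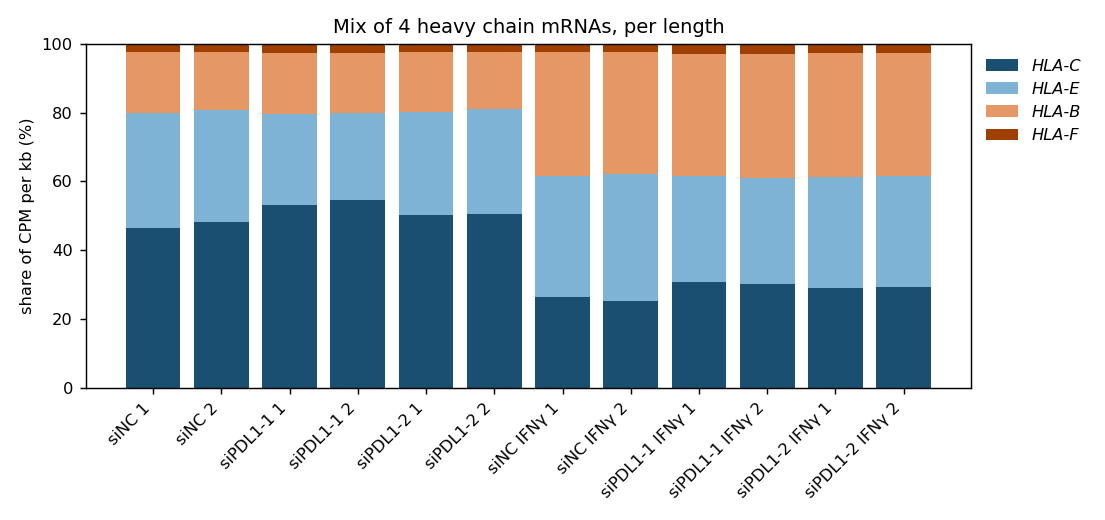
Share of each of 4 heavy chain mRNAs in their summed CPM per kb of annotated exon (%), 1 bar per library. The *HLA-B* segment is near 17% in all 6 unstimulated libraries and near 36% in all 6 stimulated ones, and the *HLA-C* segment narrows.

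The *PD-L1* siRNAs moved these genes little in unstimulated cells. With siPDL1-1 against siNC, 0 of the 6 genes were called by limma (4.00% of all genes tested), edgeR or DESeq2, and 4 had an unadjusted p under 0.05 (beside 38.9% of all genes). Without the fold limit, 3 of 6 passed FDR < 0.01 in limma, beside 18.8% of all genes. *HLA-C*, at 229 and 234 CPM, was above both siNC libraries by a log2 difference of 0.26 (95% interval 0.13 to 0.40, adjusted p = 0.00665, limma). *HLA-F*, at 19.6 and 19.1 CPM, was also above by 0.26 (0.12 to 0.41, adjusted p = 0.00846). *HLA-E*, at 132 and 128 CPM, was below by -0.27 (-0.36 to -0.17, adjusted p = 2.96e-04). The siNC and siPDL1-1 libraries did not overlap for these 3 genes, nor for *HLA-B* and *B2M*. How often 2 against 2 libraries were apart over all genes was not counted, so this is not read as evidence of a difference. With 1 library left out at a time, *HLA-E* kept an adjusted p of at most 0.00898, and the directions did not change. That of *HLA-F* was over 0.01 without any 1 of the 6 unstimulated libraries (up to 0.0716, without siPDL1-1 replicate 1), and that of *HLA-C* without any of them except siNC replicate 2 (up to 0.0761, without siNC replicate 1). The differences of *HLA-B* (0.08), *B2M* (0.11) and *NLRC5* (0.04) had 95% intervals within -0.12 to 0.21.

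With siPDL1-2 against siNC, 0 of 6 were called by limma (6.17% of all genes), edgeR or DESeq2, and 3 had an unadjusted p under 0.05 (beside 48.2% of all genes). Without the fold limit, 2 of 6 passed FDR < 0.01, beside 28.4% of all genes. *B2M* was above siNC by 0.23 (95% interval 0.14 to 0.33, adjusted p = 6.65e-04, limma), and *HLA-E*, at 137 and 136 CPM, was below it by -0.19 (-0.29 to -0.10, adjusted p = 0.00238). *NLRC5*, at 16.4 and 15.0 CPM, differed by -0.22 (-0.38 to -0.06, adjusted p = 0.0293). The adjusted p of *B2M* was 0.0148 without siNC replicate 2 and 0.0104 without siPDL1-2 replicate 2, and that of *HLA-E* was over 0.01 without any 1 of the 4 libraries compared (up to 0.0237, without siPDL1-2 replicate 2). *HLA-E* was thus lower than in siNC cells with either siRNA, but both comparisons use the same 2 siNC libraries. Between siPDL1-1 and siPDL1-2, 0 of 6 were called by limma (4.35% of all genes), edgeR or DESeq2, and 5 had an unadjusted p under 0.05 (beside 44.7% of all genes). At FDR < 0.01 without the fold limit, *HLA-F* (0.32, 95% interval 0.18 to 0.47) and *HLA-B* (0.19, 0.08 to 0.29) were higher with siPDL1-1, beside 24.1% of all genes. The adjusted p of *HLA-F* was over 0.01 without any 1 of the 4 libraries compared and that of *HLA-B* without any 1 of the 6 unstimulated libraries (up to 0.0237 and 0.106, both without siPDL1-2 replicate 2).

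After IFNγ, the comparisons were made among the 6 stimulated libraries, where 17148 genes were tested. With siPDL1-1 against siNC, 0 of 6 genes were called by limma (5.52% of all genes), edgeR or DESeq2, and 4 had an unadjusted p under 0.05 (beside 39.6% of all genes). Without the fold limit, 3 of 6 passed FDR < 0.01, beside 15.7% of all genes. The transactivator *NLRC5* differed most, at 283 and 245 CPM against 194 and 186 CPM with siNC (log2 difference 0.47, 95% interval 0.31 to 0.62, adjusted p = 6.97e-04, limma). *HLA-F*, at 151 and 135 CPM, was higher by 0.36 (0.19 to 0.53, adjusted p = 0.00604), and *HLA-C*, at 921 and 850 CPM, by 0.34 (0.18 to 0.50, adjusted p = 0.00590). The siNC and siPDL1-1 libraries did not overlap for these 3 genes, nor for *HLA-E*. The share over all genes was not counted, so this is not read as evidence of a difference. With 1 library left out, the adjusted p of *NLRC5* was at most 0.00421. Those of *HLA-C* and *HLA-F* were over 0.01 without siNC replicate 2, siPDL1-1 replicate 1 or either siPDL1-2 library (up to 0.0479 and 0.0373, both without siPDL1-1 replicate 1). *HLA-E* went the other way, at 1080 and 1008 CPM (-0.15, -0.27 to -0.02, adjusted p = 0.0772). *HLA-B*, the gene with the steepest IFNγ response in siNC cells, differed by 0.10 (-0.04 to 0.23), and *B2M*, at 1683 and 1873 CPM, by -0.03 (-0.16 to 0.09). The libraries of both genes overlapped those of siNC.

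With siPDL1-2 against siNC after IFNγ, 0 of 6 were called by limma (2.91% of all genes), edgeR or DESeq2, and 2 had an unadjusted p under 0.05 (beside 35.8% of all genes). Only *B2M* passed FDR < 0.01 without the fold limit, beside 9.67% of all genes. It was lower by a log2 difference of -0.27 (95% interval -0.40 to -0.14, adjusted p = 0.00794, limma). That adjusted p was over 0.01 without siNC replicate 2, siPDL1-2 replicate 1 or siPDL1-2 replicate 2 (up to 0.0673, without the last). *HLA-E*, at 979 and 1047 CPM, differed by -0.19 (-0.31 to -0.06, adjusted p = 0.0348), and *HLA-B* by -0.02 (-0.15 to 0.11). *HLA-C*, at 746 and 815 CPM, differed by 0.16 (0.00 to 0.32), *HLA-F*, at 114 and 129 CPM, by 0.12 (-0.05 to 0.30), and *NLRC5*, at 181 and 175 CPM, by -0.09 (-0.25 to 0.06).

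Between the siRNAs after IFNγ, 0 of 6 were called by limma (2.11% of all genes), edgeR or DESeq2, and 4 had an unadjusted p under 0.05 (beside 26.2% of all genes). *NLRC5* was higher with siPDL1-1 by 0.56 (95% interval 0.41 to 0.72, adjusted p = 5.07e-04, limma), a 1.48-fold difference just under the 1.5-fold limit, and the only member at FDR < 0.01 (4.84% of all genes). Without the second siPDL1-1 IFNγ library it passed that limit, at 0.67 (adjusted p = 1.15e-04, limma), whereas without siPDL1-2 replicate 1 or 2 its adjusted p was 0.0136 or 0.0202. *B2M* was higher with siPDL1-1 by 0.23 (0.11 to 0.36, adjusted p = 0.0243).

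**Figure D4:**
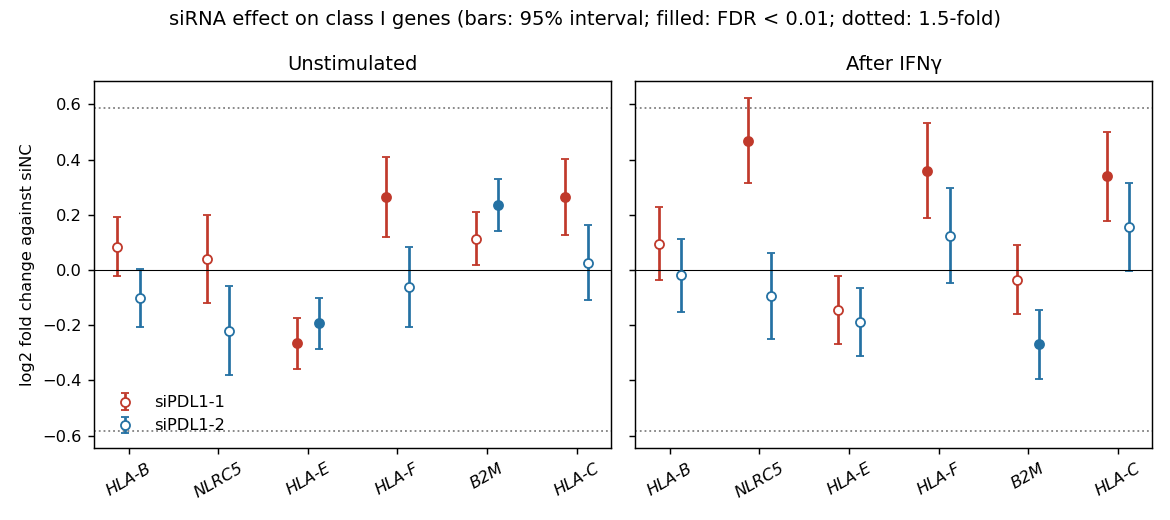
Log2 fold change of each siRNA against siNC (limma, bars: 95% interval; filled circles: FDR < 0.01; dotted lines: the 1.5-fold limit) in unstimulated cells (left) and after IFNγ (right). No point lies beyond a dotted line, and the point farthest from 0 is *NLRC5* with siPDL1-1 after IFNγ (0.47).

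*HLA-G* was close to the limit of detection. It drew 0 to 3 reads per unstimulated library and 2 to 7 reads per stimulated library, and it did not pass the filter on low counts. Summed, it had 8 reads in the 6 unstimulated libraries, or 0.0388 CPM of unscaled reads (exact Poisson 95% interval 0.0168 to 0.0765), and 19 reads in the 6 stimulated libraries, or 0.0898 CPM (0.0540 to 0.140). The intervals cover counting error only, and they overlap. Of the stretches of 75 bases in its transcripts, 1.89% also occur in transcripts of another gene, and 1.91% of those of *HLA-E* do, so a few reads of an expressed class I gene could be counted there, and their part in these counts was not tested. For *HLA-C* the share was 0.989%, for *HLA-F* 0.232%, and for *HLA-B*, *B2M* and *NLRC5* it was 0%. These shares come from reference alleles, and the alleles of U251 cells were not compared. *HLA-F* also overlaps *HLA-F-AS1* on the opposite strand, and reads were counted without regard to strand. *HLA-F-AS1* had a mean of 7.17 CPM beside 71.0 CPM for *HLA-F*, and its log2 change by IFNγ in siNC cells was 0.29 ± 0.11 (adjusted p = 0.0562, limma).

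Around class I in the pathway, IFNγ raised most genes of antigen processing, and few of them were called between the siRNAs and siNC, as for all genes. Of 14 genes for peptide supply and loading, 11 were called higher by IFNγ in siNC cells and 0 lower, with a median log2 change of 2.07 (0.00 over all genes), and 11 were called higher in either siPDL1 group. Of all genes, 6.67% were called higher with siNC, 5.58% with siPDL1-1 and 3.62% with siPDL1-2. The immunoproteasome subunit *PSMB9* rose by 5.27 ± 0.07 on the log2 scale and the peptide transporter subunit *TAP1* by 4.64 ± 0.05, both more than *HLA-B*. The smallest changes among the 11 were those of *TAPBP*, the loading bridge tapasin (1.41 ± 0.05), and its homologue *TAPBPL* (1.68 ± 0.10). The general chaperones *CALR* (0.08 ± 0.04), *CANX* (0.38 ± 0.04) and *PDIA3* (0.38 ± 0.04) were not called. *CANX* and *PDIA3* were higher at FDR < 0.01 but short of the 1.5-fold limit, and *CALR* passed neither. After IFNγ, *TAP2*, the partner of *TAP1*, was the only one of the 14 called with siPDL1-1 against siNC (0.88 ± 0.05, adjusted p = 1.14e-06, limma), at a mean of 708 against 384 CPM. Of all genes, 5.52% were called there. In unstimulated cells, the peptide-trimming enzyme *ERAP2* was the only one called, lower with siPDL1-1 by -0.67 ± 0.05 (adjusted p = 2.24e-07, limma), beside 4% of all genes. With siPDL1-1, 7 of the 14 unstimulated and 6 stimulated had an unadjusted p under 0.05 (limma), beside 38.9% and 39.6% of all genes. With siPDL1-2 against siNC, 0 of the 14 were called by limma at either time, beside 6.17% and 2.91% of all genes, and 8 unstimulated and 7 stimulated had an unadjusted p under 0.05, beside 48.2% and 35.8% of all genes.

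Of the 8 promoter factors that *NLRC5* works with, 2 were called higher by IFNγ in siNC cells (6.67% of all genes were): *RFX5* (0.70 ± 0.05), the large subunit of the RFX complex, and *CREB1* (0.70 ± 0.08). Both stood far below the 3.30 of *NLRC5*. *RFX5* was also called with siPDL1-1 (0.73 ± 0.05) and siPDL1-2 (0.73 ± 0.05), and *RFXAP* was called lower in siPDL1-2 cells (-0.62 ± 0.14, adjusted p = 0.00470, limma). *CREB1* was not called in either siPDL1 group (0.48 ± 0.08 and -0.24 ± 0.08). With siPDL1-1 it passed FDR < 0.01 but not the 1.5-fold limit, and with siPDL1-2 it passed neither. In none of the siRNA comparisons with siNC was a member of this list called by limma. Unadjusted p-values under 0.05 were found for 5 (siPDL1-1) and 6 (siPDL1-2) of the 8 in unstimulated cells and for 5 and 5 after IFNγ, beside 38.9%, 48.2%, 39.6% and 35.8% of all genes.

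Of 8 genes of IFNγ signalling, 5 were called higher by IFNγ in each siRNA group, beside 6.67%, 5.58% and 3.62% of all genes. In siNC cells *IRF1* rose by 4.85 ± 0.07 on the log2 scale, the kinase *JAK2* by 2.03 ± 0.07 and *IRF2* by 1.42 ± 0.09. The receptor chains and *JAK1* were not called. After IFNγ, siPDL1-1 cells had more *JAK2* (0.67 ± 0.07) and more *SOCS1*, a feedback inhibitor of JAK kinases (1.67 ± 0.10), and less *IRF1* (-0.63 ± 0.06) than siNC cells. All of these were called, beside 5.52% of all genes. *IRF1* was at a mean of 349 CPM against 540 CPM. In siPDL1-2 cells *JAK2* was called higher when unstimulated (0.79 ± 0.07), beside 6.17% of all genes called. After IFNγ 0 of the 8 were called by limma (2.91% of all genes were), with 3 at an unadjusted p under 0.05 (35.8% of all genes). These 3 were lower than in siNC cells at FDR < 0.01 (9.67% of all genes passed it) but short of the 1.5-fold limit. *IRF1* was among them, at -0.50 ± 0.06 (adjusted p = 3.82e-04, limma) and a mean of 383 CPM.

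Among 6 class I-like genes, whose products share the heavy chain fold, *CD1D* was not tested. In siNC cells IFNγ raised *MICB* (1.41 ± 0.06), a ligand of NKG2D, and *MR1* (0.76 ± 0.06), which presents vitamin metabolites. Both were called, beside 6.67% of all genes called higher. *MICA* (-0.32 ± 0.05) and *HFE* (-0.43 ± 0.06) were lower at FDR < 0.01 but short of the 1.5-fold limit, and likewise in both siPDL1 groups. In siNC cells 4901 of the 17982 genes passed FDR < 0.01 without the fold limit. *MR1* was called higher with siPDL1-1 both unstimulated (0.59 ± 0.06) and after IFNγ (0.70 ± 0.07), and *MICB* when unstimulated (0.60 ± 0.06). Of all genes, 4.00% were called unstimulated and 5.52% after IFNγ. With siPDL1-2 unstimulated, *MR1* (0.55 ± 0.06) and *MICB* (0.42 ± 0.06) were higher at FDR < 0.01 (28.4% of all genes passed it), short of the 1.5-fold limit. After IFNγ *MR1* differed by 0.19 ± 0.07 with siPDL1-2 (adjusted p = 0.0906, limma). *HCP5*, a noncoding RNA in the same region, rose by 2.46 ± 0.12 on the log2 scale with IFNγ in siNC cells. Of the 7 receptors of class I listed, only *KLRD1* was tested, and the highest group mean among them was its 0.348 CPM.

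Genes of the type I interferon response were higher with siPDL1-1 than with siNC, both unstimulated and after IFNγ. After IFNγ, 12 of 13 were called higher with siPDL1-1 than with siNC (3.76% of all genes were), with a median log2 difference of 3.36, while the median of the 6 class I genes was 0.22 and that of all genes -0.01. Their summed level was 4954 to 5040 CPM with siPDL1-1, 512 to 543 CPM with siNC and 582 to 613 CPM with siPDL1-2. In unstimulated cells 10 of 13 were called higher with siPDL1-1 (2.55% of all genes were; median 0.93), at a summed 143 to 144 CPM against 81.3 to 82.9 CPM. *IFIT3*, whose product binds viral RNA complexes, was at a mean of 710 CPM with siPDL1-1 after IFNγ against 94.4 CPM with siNC, and *OAS2*, a sensor of double-stranded RNA, at 370 against 17.3 CPM. IFNγ raised 12 of the 13 in siNC cells too (6.67% of all genes were called higher), from *IFI6* (1.41 ± 0.09) to *IFIT3* (4.79 ± 0.07). *RSAD2* was at 0 CPM in both unstimulated siNC libraries and at a mean of 2.22 CPM after IFNγ. With siPDL1-2 after IFNγ only *IFI6* was called (0.76 ± 0.10), beside 2.91% of all genes, and 9 of the 13 had an unadjusted p under 0.05 (limma), beside 35.8%. The part of this response in the higher *NLRC5*, *HLA-C* and *HLA-F* of siPDL1-1 cells was not tested.

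**Figure D5:**
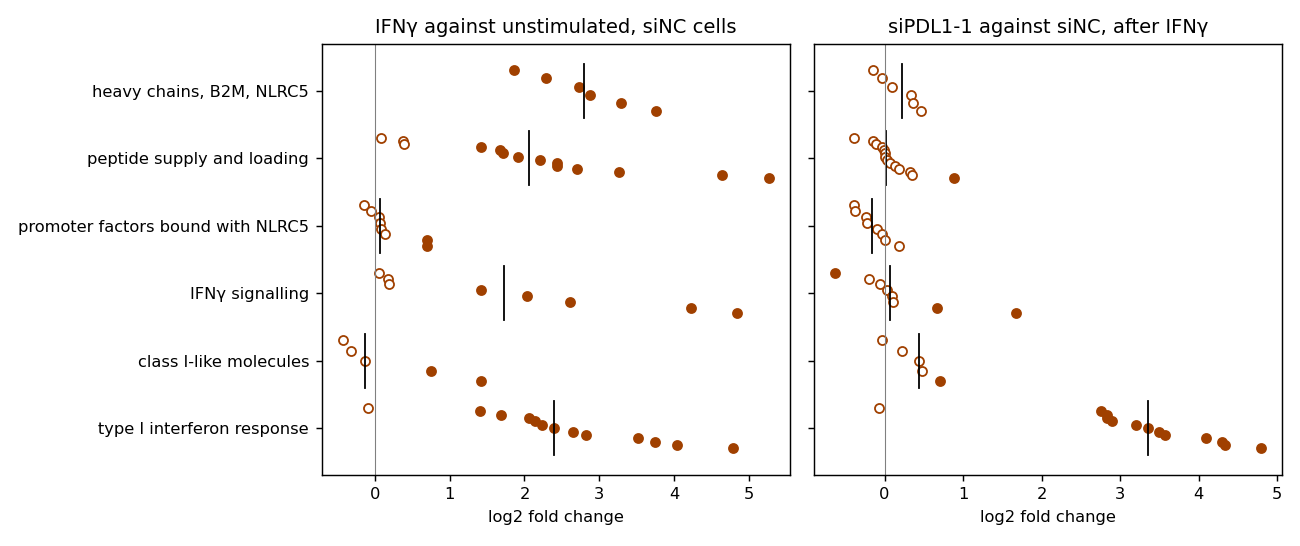
Log2 fold change of each tested gene in 6 lists (filled circles: FDR < 0.01 and fold change over 1.5; vertical bars: list medians) for IFNγ in siNC cells (left) and for siPDL1-1 against siNC after IFNγ (right). The class I genes lie between 1.86 and 3.76 on the left and within -0.15 to 0.47 on the right, where 12 of 13 type I interferon response genes lie above 2.7.

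Genes with the most similar pattern over the 12 libraries were found by the root mean square difference of centred log2 values, among 14278 genes, as a description. For *HLA-B* the nearest were *ETV7* (0.118) and *UBE2L6* (0.134), against a median of 1.90 over all genes. *HLA-E* was nearest to *IL15RA* (0.119), *PSMB8* (0.137) and *PDCD1LG2* (0.142), which encodes PD-L2. *NLRC5* was nearest to *UBE2L6* (0.157), *APOBEC3G* (0.195) and *PSMB10* (0.203). *B2M* was nearest to *ERAP1* (0.157), *AC022034.1* (0.163) and *TRIM69* (0.166). Among the class I genes themselves, the closest pairs were *HLA-C* and *B2M* (0.204), *HLA-B* and *NLRC5* (0.216) and *HLA-E* and *HLA-F* (0.224), and the most distant were *HLA-B* and *HLA-C* (0.936).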

How the data were processed

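The 12 libraries of U251 cells were poly(A)-selected; per the labels RNA came from a column kit and libraries were stranded and sequenced on a NovaSeq, whereas the study's methods name TRIzol and a HiSeq. Per the study's methods, the authors mapped reads to GRCh38 with CLC Genomics Workbench 22.0.2, counting fragments on either strand. The deposited values are a normalized signal, CPM with a further scaling by the authors. Each is a whole number of reads (100% within 0.02 reads), and the scaling factors were 0.959 to 1.04. Reads recovered this way gave library depths of 17101069 to 55657393. Groups were taken from the sample titles. The members and the gene lists were chosen with earlier results of these data known.

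Genes were filtered with filterByExpr (minimum count 10, total 15) and fitted on log2(CPM + 1) with limma 3.58.1 (trend, robust) in R 4.3.3: all 12 libraries as 6 groups, or the 6 stimulated libraries as 3 groups for siRNA comparisons after IFNγ. A call needed FDR < 0.01 and fold change > 1.5, Benjamini-Hochberg adjusted over all genes tested; 6 of 7 members were tested. Ratios used exact permutation tests. Lengths came from GENCODE 44 transcripts within the table's gene bounds, promoters from RefSeq. On data simulated for the IFNγ effect in siNC cells (17651 genes), 194 of 200 genes changed by a log2 value of 1.5 were recovered with 0 false calls, and for siPDL1-1 against siNC after IFNγ (17160 genes) 191 of 200 with 1. No member differed between siRNAs by more than 0.56 in size, so this recovery does not bear on those smaller differences. Alternatives were edgeR 4.0.16 and DESeq2 1.42.0 on recovered reads, 2 other scalings, a pseudocount of 0.1, no filter, a replicate block, libraries left out, other sets of libraries and other thresholds. Named genes were all 7 members, *CD274*, the 2 largest and 2 smallest IFNγ changes among called genes of each list, list genes called between an siRNA and siNC, and the 3 nearest genes of 4 members; other named genes were chosen after their values were seen. A gene that this rule names is not reported here. Replicate numbers are not known to pair the libraries, and the main fits did not pair them.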

Additional observations from a re-analysis of the deposited data

Results flagged for a closer look

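The IFNγ effect on *B2M* differed between siPDL1-2 and siNC cells by a log2 value of -0.50 in the interaction test of limma (adjusted p = 8.00e-05), the only one of the 6 class I genes tested whose difference passed FDR < 0.01. Of all genes 17.1% did, so 1 of 6 is near that share. It was between -0.53 and -0.46 under the 22 alternatives tried, at an adjusted p of at most 0.00108.

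Among genes of the lists, 14 differed between siPDL1-1 and siNC cells at FDR < 0.01 with a difference past the 1.5-fold limit, which *B2M* did not reach (0.968% of all genes passed both). Without that limit *CANX* passed too, at -0.28 (adjusted p = 0.00975, limma). The differences of IFNγ effects were 2.15 for *ISG15*, 2.42 for *IFI6*, 2.11 for *IFI44L*, 2.21 for *IFI44*, 2.19 for *IFIT2*, 1.58 for *IFIT3*, 2.49 for *IFIT1*, 2.76 for *OAS1*, 2.55 for *OAS3*, 3.04 for *OAS2* and 3.86 for *MX2*. *RSAD2*, at 3.72, was at 0 CPM in both unstimulated siNC libraries, so its fitted value depends on the 1 CPM added before the log. Outside the type I interferon response the test found 0.83 for *TAP2* and 1.46 for *SOCS1*.

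Between siPDL1-2 and siNC cells 5 genes, *CD274* included, passed both limits (7.62% of all genes did), and their differences were 0.87 for *IFI6*, -0.94 for *CREB1*, -0.93 for *JAK2*, -0.65 for *CD274* and -0.59 for *IFIT2*. Another 9 passed FDR < 0.01 alone, with differences from -0.57 (*IFNGR1*) to 0.54 (*TAPBPL*). *CREB1* had a mean of 34.1 CPM in unstimulated siNC cells and 48.5 CPM in unstimulated siPDL1-2 cells, and 56.1 and 41.1 CPM after IFNγ. *JAK2* had 14.7 and 26.2 CPM unstimulated, and 63.2 and 57.3 CPM stimulated.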

How the results depend on the processing

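All 6 members stayed called higher by IFNγ in each siRNA group under every alternative run (6 of 6 in each, libraries left out included). In the siRNA comparisons and interactions the count of 0 stayed 0 under the alternatives that kept the fold limit, with 1 exception: leaving out 1 library at a time gave 0 to 1 for siPDL1-1 against siPDL1-2 after IFNγ, where *NLRC5* was called without siPDL1-1 IFNγ replicate 2. Without the fold limit, FDR < 0.01 called 3 members for siPDL1-1 and 2 for siPDL1-2 against siNC in unstimulated cells, 2 between the siRNAs, 3, 1 and 1 in the same comparisons after IFNγ, and 1 for the siPDL1-2 interaction. Of 1374 member values under alternatives, 1355 kept their sign, and the 19 that did not had a log2 difference of at most 0.07 in size as reported. A replicate block left 6 of 6 members called by IFNγ in siNC cells, 1467 genes against 1460 in all, and changed no member's call; the numbers are not known to pair libraries (correlations of replicate differences -0.187 to 0.252). With the numbers crossed, an alternative added after seeing the data, 1468 were called, and 574 against 499 for siPDL1-2 against siNC after IFNγ. Over all genes, siPDL1-2 against siNC after IFNγ called 143 to 700 genes with 1 library left out (499 as reported; 172 and 143 without siPDL1-2 IFNγ replicate 1 and 2), siPDL1-1 against siPDL1-2 called 213 to 408 (362; 224 and 213 without the same libraries), and the siPDL1-2 interaction called 890 without siPDL1-2 IFNγ replicate 2 (1370). Without the fold limit, the IFNγ effects called 4901, 4122 and 3080 genes (1460, 1236 and 947 with it), the unstimulated siRNA comparisons 3379, 5107 and 4338 (720, 1110 and 783), those after IFNγ 2692, 1659 and 830 (946, 499 and 362), and the interactions 293 and 3067 (174 and 1370). With 2 libraries per group, small differences such as that of *HLA-E* after IFNγ are at the edge of what the spread allows.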
